A study of Caenorhabditis elegans with 10 samples.

Results

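The genes skn-1, hlh-30, hsf-1, atfs-1, hif-1, xbp-1 and pha-4 each encode a transcription factor that steers a response to stress in the nematode C. elegans, and all 7 have been tied to lifespan. Binding of 3 further factors, CEH-60, UNC-62 and PQM-1, near these genes was read from 8 lists of peaks made by chromatin immunoprecipitation and sequencing (ChIP-seq), which recovers the DNA that a protein occupies. Every peak whose interval overlapped one of the 7 genes or lay within 2 kb of it was taken. This gave 130 of the 40986 peaks in the 8 lists, at 6 of the 7 genes, out of 19971 protein-coding genes in the WBcel235 gene table.

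The 7 genes cover separate branches of stress physiology. SKN-1, an Nrf-like factor, drives detoxification and antioxidant genes, HSF-1 drives chaperone genes after heat, and HIF-1 drives the response to low oxygen. ATFS-1 and XBP-1 are bZIP proteins of the mitochondrial and the endoplasmic reticulum (ER) unfolded protein responses, and the mRNA of xbp-1 is activated by splicing through the ER sensor IRE-1. HLH-30 is the TFEB homologue that induces autophagy and lysosome genes, and PHA-4 is the FOXA homologue that specifies the pharynx and is needed for the long life of animals on a restricted diet. On the side of the bound proteins, CEH-60 belongs to the PBX and UNC-62 to the MEIS family of homeodomain proteins, which join on DNA. PQM-1, a zinc finger protein, acts in the intestine.

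Chromatin came from whole animals on day 1 of adulthood, so the lists mix all tissues and do not tell in which cells a gene was occupied. PQM-1 was recovered with the anti-FLAG antibody M2 from DLS422, which is ceh-60(ok1485); wgIs201, and from OP201, which is unc-119(tm4063); wgIs201. The transgene wgIs201 carries the tagged pqm-1 in both strains, and the label of DLS422 lists no unc-119 allele. The allele ceh-60(rhd116) puts an HA tag on CEH-60 made from its own locus. CEH-60 was recovered by this tag with the antibody 3F10 from DLS435, which is pqm-1(ok485); ceh-60(rhd116), and from DLS395, which is ceh-60(rhd116). The strain DLS396, ceh-60(rhd116); gaIs285, gave an UNC-62 list with an anti-GFP antibody, since its transgene carries a tagged UNC-62 of isoform 7a, and a CEH-60 list with 3F10. A second anti-HA antibody, mIgG1, was used on DLS395. The alleles ok1485 and ok485 are deletions. Both PQM-1 lists, DLS435 and the 3F10 replicate 2 of DLS395 were made by a protocol with 1% formaldehyde for 5 min, called the short protocol here. Both DLS396 lists, mIgG1 and replicate 1 of DLS395 with 3F10 were made with 2% formaldehyde for 30 min, from animals grown at 20 °C, called the long protocol. Only CEH-60 in DLS395 with 3F10 had 2 samples, and these differed in protocol, so no comparison here has a replicate made the same way and no p-value is given.

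Each peak has a fold enrichment over local background, set by the authors, which is used below to describe and rank peaks within 1 list and never to compare lists. Read depth is unknown, and the lists differed in length from 2048 to 9010 peaks, so the share of all protein-coding genes with a peak under the same 2 kb rule is given beside each count. The gene table gives no strand, so ends of genes are called low or high by coordinate and not by the start of transcription. Positions are those of the deposited lists, counted from 1, and their genome build was not given in the sources used here. Intervals on shares are Wilson 95% intervals and cover counting error only. They take each peak as independent, although many peaks lie in the same gene, so they serve as description and not as a test.

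Peaks were found at 6 of the genes, and hsf-1 had none. For PQM-1, DLS422 had peaks at 5 of the 7 genes (skn-1, hlh-30, hif-1, xbp-1 and pha-4), beside 21.2% of all protein-coding genes, and OP201 had peaks at 6 of 7, beside 26.5%. For CEH-60 under the same protocol, DLS435 had peaks at 3 of 7 (skn-1, hlh-30 and xbp-1), beside 10.2%, and DLS395 replicate 2 at 5 of 7, beside 17.3%. The UNC-62 list had peaks at 4 of 7 (skn-1, hif-1, xbp-1 and pha-4), beside 11.5%, and the CEH-60 list of the same strain at 6 of 7, beside 40.8%. In DLS395, the mIgG1 list had peaks at 5 of 7 (all but hlh-30 and hsf-1), beside 23.8%, and replicate 1 with 3F10 at 6 of 7, beside 40.9%. In each of the 8 lists the share of the 7 genes with a peak was thus above that of all genes, with 1 to 4 of the 7 lacking one. The 7 genes were chosen with earlier results of these data known, so these shares are a description and not a test. Both skn-1 and xbp-1 had a peak in every list, 2 of 7 genes, beside 6.58% of all protein-coding genes. In both 3F10 replicates of DLS395, 5 of the 7 genes had a peak, beside 17.2%. A longer gene has more sequence for peaks to fall on, and 5 of the 7 are among the longest 16.6% of protein-coding genes. Among genes at least as long as each of the 7, the share with a replicate 1 peak ran from 45.9% (xbp-1) to 72.7% (hlh-30). In OP201 it ran from 30.0% (xbp-1) to 46.9% (hlh-30). These are all above the shares of all genes in those lists. The part of gene length in these counts was not tested, and further shares among genes at least as long are given below for skn-1, hlh-30 and hsf-1.

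The gene skn-1 was the most widely occupied of the 7, with 41 peaks over the 8 lists, 39 of them with their summit inside the gene. It spans 9346 bp, and clec-178 and csn-5 overlap it. Peaks within 300 bp of each other by summit were joined into sites, numbered from the low-coordinate end, and skn-1 had 10 sites. PQM-1 peaks covered 26.5% of the gene and its 2 kb flanks in DLS422 (5 peaks) and 44.1% in OP201 (6 peaks), the most of any list. CEH-60 peaks covered 14.6% in DLS435 (5 peaks) and 17.7% in DLS395 replicate 2 (6 peaks). UNC-62 covered 5.13% with 3 peaks and CEH-60 in DLS396 covered 32.3% with 6 peaks. The mIgG1 list covered 14.4% with 4 peaks, and replicate 1 covered 38.2% with 6 peaks. Genes with 6 or more peaks were few, also among long genes. In replicate 2, 0.135% of all protein-coding genes and 1.37% of the 1091 genes at least as long as skn-1 had as many, and in replicate 1, 0.461% of all and 5.22% of the long ones did.

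Within skn-1, 3 places were under a peak of every list. At site 4, 3398 bp inside the low end and within clec-178, a C-type lectin gene, all 8 lists had a summit, and the 8 summits lay within 100 bp. There, PQM-1 had a fold of 2.97 in DLS422 (rank 849 of 5020) and 3.37 in OP201 (rank 648 of 6001). CEH-60 had 1.84 in DLS435 (rank 1892 of 2048) and 2.58 in DLS395 replicate 2 (rank 1154 of 3430). UNC-62 had 3.03 (rank 1932 of 2053) and CEH-60 in DLS396 had 12.7 (rank 1234 of 8993). The mIgG1 list had 4.51 (rank 2025) and replicate 1 had 9.98 (rank 939). This site thus stood in the first 16.9% of both PQM-1 lists and near the end of the DLS435 list, at 92.4%, and of the UNC-62 list, at 94.1%. Because the place belongs to skn-1 and clec-178 alike, the peak lists do not tell which gene it serves.

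In the 3 CEH-60 lists of the long protocol, the strongest skn-1 peak was at site 9, 1248 bp inside the high end. UNC-62 had its strongest skn-1 peak there too, from IV 5659028 to 5659233, with a fold of 3.995 (rank 1214 of 2053), and its summit lay 4 bp from the CEH-60 summit of the same strain. CEH-60 had a fold of 16.01 in DLS396 (rank 687 of 8993), 7.99 in the mIgG1 list (rank 541 of 4431) and 11.4 in replicate 1 (IV 5658851 to 5660177, rank 579 of 9010). In the short protocol, CEH-60 had 2.26 in DLS435 and 2.32 in replicate 2 at site 9, and its strongest skn-1 peak was at site 10 in DLS435 (2.49) and at site 6 in replicate 2 (2.61). The PQM-1 peaks spanned site 9 but had their summits at site 10, nearer to the high end. The OP201 peak, IV 5658870 to 5659838, had a fold of 3.85 (rank 244 of 6001), and its summit lay 572 bp from the replicate 2 CEH-60 summit at site 9 and 52 bp from the one at site 10. Of the overlapping OP201 and replicate 2 pairs over the whole genome, 6.87% had summits as far apart as the wider of these distances. Both CEH-60 lists of the short protocol and the mIgG1 list had separate peaks at sites 9 and 10, while DLS396 and replicate 1 had 1 broad peak over both.

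Site 6 of skn-1, 3535 bp inside the high end, was the third place under a peak of every list. In DLS422 the PQM-1 summit lay at site 7 (fold 1.95, rank 4370), 615 bp from the summit of the overlapping OP201 peak at site 6 (fold 3.04, rank 1118). For CEH-60, the DLS435 summit was also numbered to site 7 (fold 1.88, rank 1842), 377 bp from the replicate 2 summit at site 6 (fold 2.61, rank 1081). Distances as large were seen in 5.79% of overlapping PQM-1 pairs and 5.81% of overlapping CEH-60 pairs over the genome. Both peaks at site 7 were weak within their lists, at 87.1% of DLS422 and 89.9% of DLS435, and the moved summits have no replicate check.

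Outside skn-1 there was little. Only DLS396 and replicate 1 had a peak outside the gene, at site 1, 331 bp beyond the low end and inside csn-5, with folds of 4.49 and 3.18. On the other side, the autophagy gene bec-1 lies 756 bp beyond the high end of skn-1, so the peaks at sites 9 and 10 are also within 2 kb of bec-1.

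The gene hlh-30 had the most peaks, 43 over 6 lists, and every one of them lay inside the gene. It spans 19990 bp, and only 194 protein-coding genes are at least as long. PQM-1 had 8 peaks in DLS422 and 12 in OP201, CEH-60 had 2 in DLS435 and 4 in replicate 2. UNC-62 had none, CEH-60 had 9 in DLS396, the mIgG1 list had none and replicate 1 had 8. Only 4 protein-coding genes, hlh-30 included, had 12 or more PQM-1 peaks in OP201, 2 of them among the 194 genes of that length (1.03%). In replicate 1, 6.19% of the long genes had 8 or more peaks. The nearest UNC-62 peak lay 25054 bp beyond the high end of hlh-30, and the nearest mIgG1 peak lay 3252 bp beyond it with a fold of 7.50 (rank 651). Of the long genes, 27.3% had an UNC-62 peak and 53.6% an mIgG1 peak, so long genes without one were common.

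The hlh-30 peaks formed 12 sites, most of them of low or middle rank. Its strongest CEH-60 peak was at site 7, 12932 bp from the low end: IV 4027490 to 4028645 in DLS396, with a fold of 10.4 (rank 1923), and IV 4027425 to 4028648 in replicate 1, with 8.26 (rank 1550). DLS435 had no peak there, and replicate 2 had its strongest hlh-30 peak, with 2.34 (rank 1717 of 3430). PQM-1 at site 9 had 2.52 in DLS422 (rank 1872) and 2.98 in OP201 (rank 1250), its strongest hlh-30 peak there. At site 10 it had 2.91 in DLS422 (rank 960), the strongest of that list in hlh-30, and 1.94 in OP201 (rank 5243). Site 10 thus stood at 19.1% of the DLS422 list and at 87.4% of the OP201 list, in 1 library each. Ranks from lists of different length show no change in binding. Sites 8 and 9 were the only ones with a CEH-60 peak in DLS435, at folds of 1.80 and 2.05. PQM-1 peaks without a CEH-60 summit were found at sites 5 and 6, of which site 5 was in both PQM-1 lists (2.36 in DLS422 and 2.28 in OP201).

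**Figure D1:**
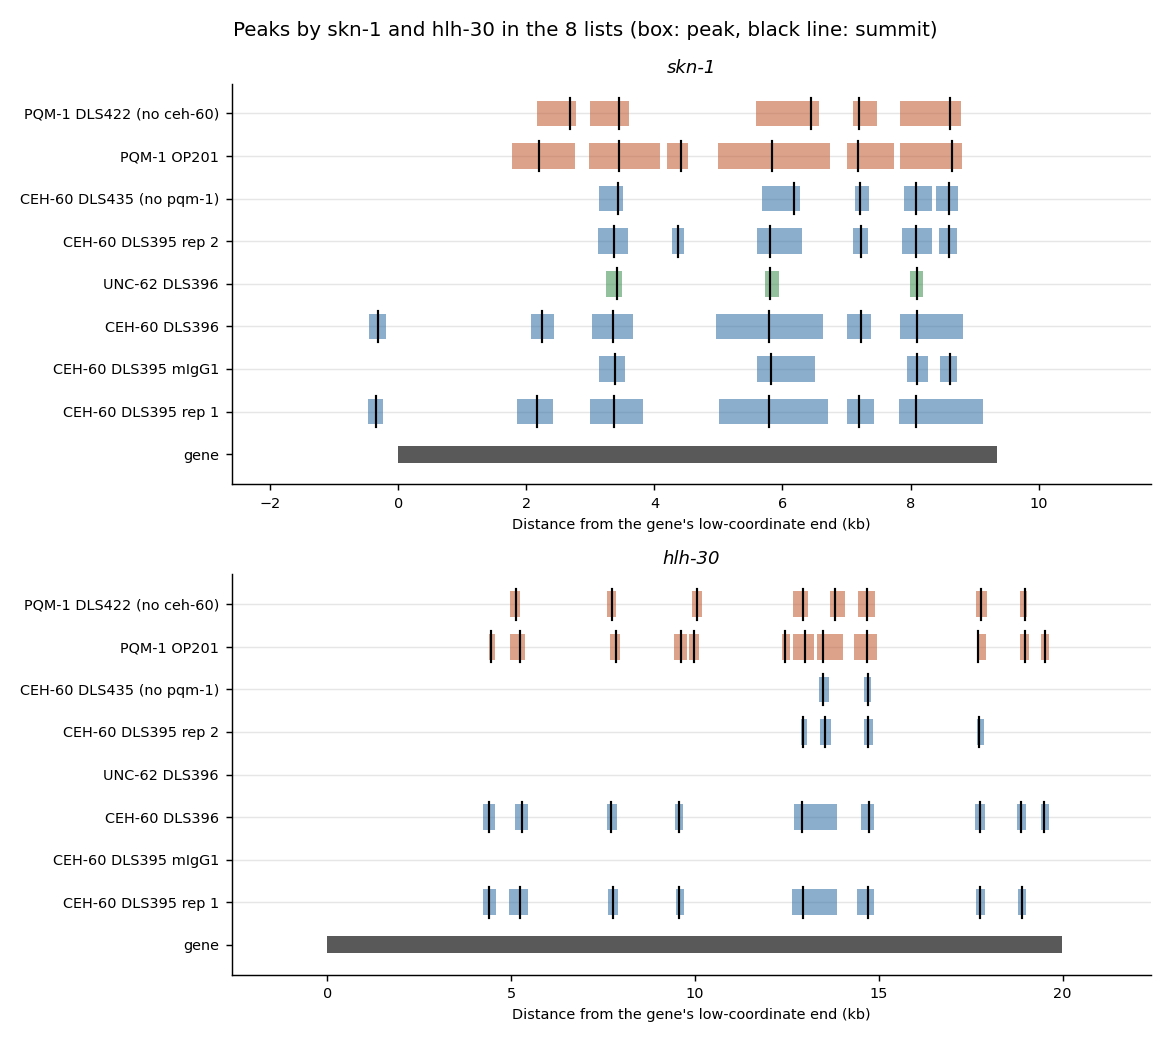
Peaks by skn-1 (top) and hlh-30 (bottom) in each of the 8 lists, against distance from the low-coordinate end of the gene in kb; boxes are peaks, black lines are summits, the dark bar is the gene, and colour marks the factor (orange PQM-1, blue CEH-60, green UNC-62). The peaks of skn-1 line up at sites that recur from list to list, including 3 UNC-62 peaks, while hlh-30 has 12 peaks in OP201 and none in the UNC-62 and mIgG1 lists.

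The gene xbp-1, 1550 bp long, carried 1 compact site at its low-coordinate end that was in every list. Its median summit lay 50 bp outside the gene, and the 8 summits spanned 133 bp. For PQM-1 the peak had a fold of 2.80 in DLS422 (rank 1162 of 5020) and 4.24 in OP201 (III 4193442 to 4194126, rank 96 of 6001). The OP201 peak was the highest-ranked of all 130 peaks, in the first 1.60% of its list. CEH-60 had a fold of 2.26 in DLS435 (rank 1053 of 2048) and 2.59 in replicate 2 (rank 1106 of 3430). UNC-62 had 3.60 (rank 1535 of 2053), and CEH-60 had 11.98 in DLS396 (rank 1407), 5.14 in the mIgG1 list (rank 1544) and 8.48 in replicate 1 (rank 1457). A weaker site beyond the high end, 167 bp outside the gene, was in OP201 (2.30), DLS396 (2.79) and replicate 1 (2.79), and in no other list. The neighbour dnj-16 lies 379 bp from the low end, on the side of the main site.

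At hif-1 the peaks lay almost wholly outside the gene, 15 of 16 by summit. The main site, 1369 bp beyond the low end, was absent from DLS422 and had a fold of 3.06 in OP201 (V 20778882 to 20779182, rank 1074). It was absent from DLS435, whose nearest peak lay 52481 bp away, and had a fold of 2.41 in replicate 2 (rank 1513). UNC-62 had a fold of 4.39 (rank 940 of 2053) and CEH-60 in DLS396 had 12.2 (rank 1355 of 8993), with summits 4 bp apart. The mIgG1 list had 5.04 (rank 1624) and replicate 1 had 9.29 (rank 1136). Of the 8 lists, the 6 with a peak at this site were those of strains with intact ceh-60 and pqm-1 genes, tags aside. The DLS422 list (5020 peaks) is also shorter than OP201 (6001), and DLS435 (2048) shorter than replicate 2 (3430), from 1 library each. A peak lost at this site and a lower recovery of the whole library therefore cannot be told apart. In DLS422 PQM-1 still had a peak at the next site outward, 1992 bp from the gene, with a fold of 2.06 (rank 3883), beside 2.31 in OP201 (rank 3285). Its interval ended 1941 bp from hif-1, just inside the 2 kb limit. Weaker peaks at 3 further sites had folds of 1.99 to 4.59, and the one inside the gene, in replicate 1 only, ranked 8995 of 9010.

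At pha-4, PQM-1 and CEH-60 peaks ranked highest at different places. The site 234 bp beyond the low end was absent from DLS422 and DLS435, and its PQM-1 peak in OP201 was weak, with a fold of 2.22 (rank 3693 of 6001). CEH-60 there had 1.94 in replicate 2 (rank 2939 of 3430), UNC-62 had 4.35 (rank 959 of 2053), and CEH-60 in DLS396 had 12.1 (V 20752649 to 20753063, rank 1389 of 8993). The mIgG1 list had 3.82 (rank 2797) and replicate 1 had 8.35 (rank 1497). The OP201 peak was in quartile 3 of fold, where 55.8% of all peaks were shared with DLS422. The replicate 2 peak was in quartile 4, where 24.3% of all peaks were shared with DLS435. A peak lost at this site and a lower recovery of the whole library cannot be told apart. At the next site, 973 bp inside the gene, PQM-1 had 2.92 in DLS422 (rank 930) and 2.75 in OP201 (rank 1756), while CEH-60 had only 3.70 in DLS396 (rank 7092) and 2.81 in replicate 1 (rank 7775), with no peak in replicate 2. The inner site thus stood high in the PQM-1 lists and low in the CEH-60 lists. The innermost site, 2600 bp inside, was in DLS422 (1.78), DLS396 (4.34) and replicate 1 (4.24), and was the one DLS422 peak by the 7 genes without an overlapping OP201 peak, the nearest of which lay 1001 bp away.

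The gene atfs-1 had no PQM-1 peak in DLS422 and a strong one in OP201 (V 14193442 to 14193781, fold 3.26, rank 773 of 6001), with its summit 863 bp beyond the low end. The nearest DLS422 peak lay 17987 bp from it. CEH-60 was absent from DLS435 and from replicate 2, whose nearest peak lay 57973 bp from the OP201 peak, and UNC-62 was absent too. DLS396 had a fold of 6.20 (rank 4179), mIgG1 2.99 (rank 3997 of 4431) and replicate 1 4.74 (rank 4236). A site by the high end, 58 bp outside the gene, was in DLS396 (4.27) and replicate 1 (3.17) and in no other list. At atfs-1, then, the PQM-1 peak of OP201 was in the first 12.9% of its list, while the CEH-60 peaks at the same site were in the middle of the long-protocol lists, at 46.5% and 47.0%, or near the end of the mIgG1 list, at 90.2%.

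The gene hsf-1 had no peak in any of the 8 lists. It spans 8476 bp on chromosome I, and among the 1347 genes at least as long, 30.7% had a peak in DLS422 and 37.0% in OP201. The shares of those genes were 18.2% in DLS435, 28.7% in replicate 2, 19.7% for UNC-62, 58.0% in DLS396, 40.4% in the mIgG1 list and 58.6% in replicate 1. Its nearest peaks were weak ones 2920 bp (DLS396, fold 3.23, rank 8007) and 2994 bp (replicate 1, fold 2.20, rank 8888) beyond its high end. In the other 6 lists the nearest peak lay between 32749 and 222959 bp away. A gene without a peak in any list was not rare, since 10889 of the 19971 protein-coding genes had none.

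**Figure D2:**
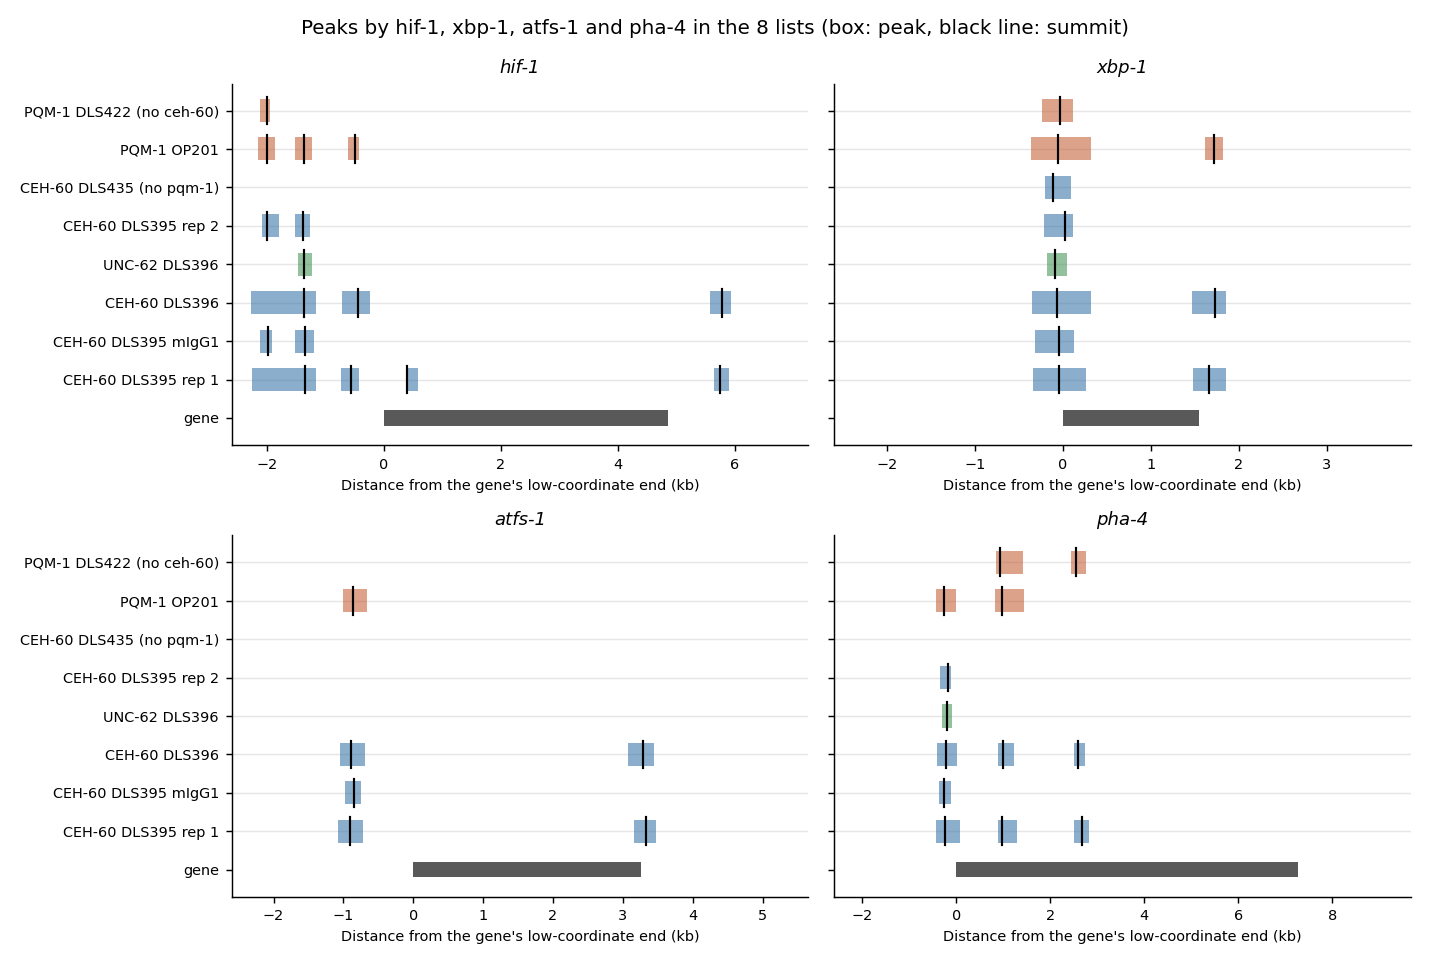
Peaks by hif-1, xbp-1, atfs-1 and pha-4 in each of the 8 lists, against distance from the low-coordinate end of the gene in kb; boxes are peaks, black lines are summits, the dark bar is the gene and colour marks the factor. The site at the low end of xbp-1 is in all 8 lists, while the sites beyond the low ends of hif-1 (1369 bp) and pha-4 (234 bp) are missing from DLS422 and DLS435. At this pha-4 site the peaks of OP201 (rank 3693 of 6001) and replicate 2 (rank 2939 of 3430) were weak.

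**Figure D3:**
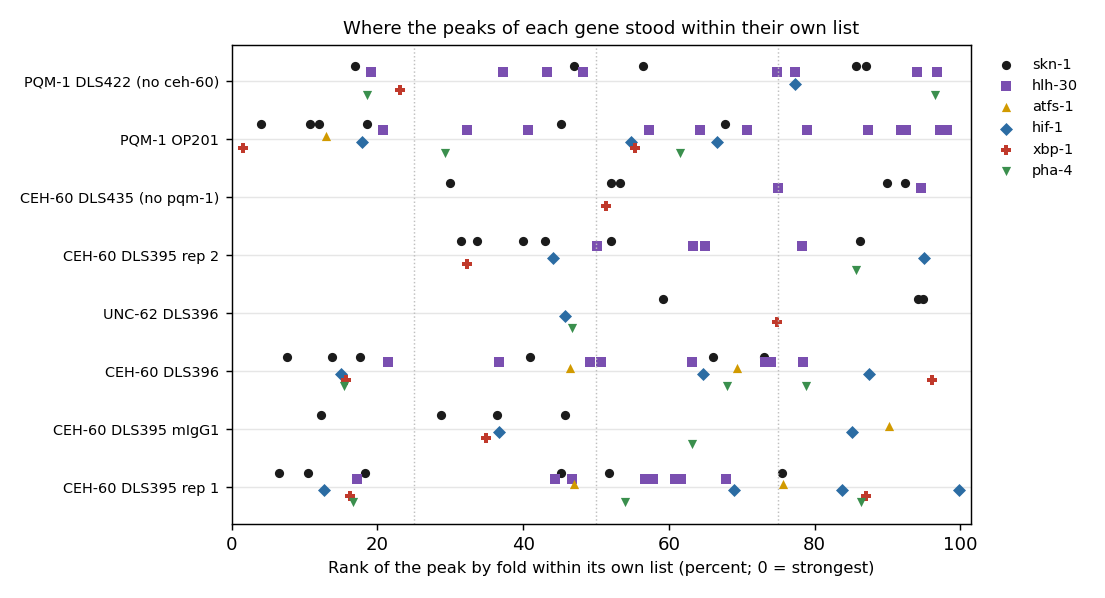
Rank of each of the 130 peaks by fold within its own list, as a percent of that list (0 is the strongest peak), with a row for each list and a symbol for each gene; dotted lines mark quartiles. The xbp-1 peak of OP201 stands in the first 1.60%, and no peak by these genes is in the top quartile of DLS435, replicate 2 or UNC-62.

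By list, the median fold of the peaks by the 7 genes was below that of all peaks in 7 of the 8 lists, and above it in the mIgG1 list. Their median fold was 2.26 in DLS422, beside 2.34 for all peaks of that list, and 2.31 in OP201, beside 2.38. It was 2.15 in DLS435 (2.28 for all), 2.33 in replicate 2 (2.34), 3.80 for UNC-62 (4.25), 4.70 in DLS396 (5.79), 5.04 in the mIgG1 list (4.31) and 4.24 in replicate 1 (4.52). Their places in the top quartile of fold numbered 4 of 17 in DLS422, 8 of 26 in OP201, 7 of 25 in DLS396, 1 of 9 in the mIgG1 list and 7 of 25 in replicate 1. None of the 8 in DLS435, 14 in replicate 2 or 6 in the UNC-62 list was in the top quartile.

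Over the 6 genes there were 34 sites, 24 inside a gene and 10 outside. PQM-1 and CEH-60 both had a summit at 26 of them. At 3 there was a PQM-1 but no CEH-60 summit (skn-1 site 3 and hlh-30 sites 5 and 6), and at 5 a CEH-60 but no PQM-1 summit, among them skn-1 site 9, which the PQM-1 peaks spanned. UNC-62 had summits at 6 sites, and each of these also had CEH-60 summits in at least 4 lists. All 8 lists had a peak over 4 sites, which were skn-1 sites 4, 6 and 9 and the main site of xbp-1, and only 2 sites were in 1 list alone.

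Peaks of PQM-1 without ceh-60 were nearly all a subset of those with it. Of the 17 DLS422 peaks by the 7 genes, 16 shared 1 bp or more with an OP201 peak (94.1%, interval 73.0% to 99.0%), beside 83.4% of all DLS422 peaks. Conversely, 16 of the 26 OP201 peaks were met in DLS422 (61.5%, interval 42.5% to 77.6%), beside 67.9% of all OP201 peaks. Both shares of all peaks lay within the members' intervals, which is not a test, since skn-1 held 5 and hlh-30 held 8 of the 17 DLS422 peaks. The 10 OP201 peaks without a DLS422 peak were spread over all 6 genes. They were at skn-1 site 5, hlh-30 sites 1, 4, 6 and 12, hif-1 sites 2 and 3, the outer site of atfs-1, the high-end site of xbp-1 and the outer site of pha-4. Of these 10, 8 had folds of 1.71 to 2.30 and ranks of 3321 to 5892 of 6001. The other 2, at atfs-1 (3.26) and hif-1 (3.06), were in the top quartile of OP201, where 6 of 8 peaks by the 7 genes were shared, beside 97.1% of all top-quartile peaks. Over the whole list, 43 of 1501 top-quartile peaks had no DLS422 peak, so the peaks at atfs-1 and hif-1 are 2 of those 43. In the following quartiles 4 of 4, 3 of 8 and 3 of 6 were shared, beside 78.0%, 55.8% and 40.2% of all peaks.

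Over the 16 overlapping pairs the median distance was 54 bp (range 3 to 615 bp), beside 37 bp for the 4403 pairs of the whole lists. In 3 of the pairs the summits lay 326 bp (hlh-30 site 8), 478 bp (skn-1 sites 3 and 2) and 615 bp (skn-1 sites 7 and 6) apart. The closest was at skn-1 site 4, with 3 bp, followed by hlh-30 site 9, with 5 bp. The DLS422 list has 5020 peaks and the OP201 list 6001, from 1 library each, so a peak lost at 1 gene and a lower recovery of the whole library cannot be told apart.

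CEH-60 peaks without pqm-1 likewise fell within those with it. All 8 DLS435 peaks by these genes overlapped a replicate 2 peak (100%, interval 67.6% to 100%), beside 92.3% of all DLS435 peaks. In the other direction, 8 of the 14 replicate 2 peaks were in DLS435 (57.1%, interval 32.6% to 78.6%), beside 52.2% of all. Of the 8 shared peaks, 5 were in skn-1 (sites 4, 6 or 7, 8, 9 and 10), 2 in hlh-30 (sites 8 and 9) and 1 at xbp-1. The 6 without a DLS435 peak were skn-1 site 5, hlh-30 sites 7 and 10, both hif-1 sites and pha-4. Thus hif-1 and pha-4 had CEH-60 peaks in replicate 2 and none in DLS435, with the nearest DLS435 peak 26301 bp or more from each of these peaks. Both genes lie on chromosome V and had the same nearest DLS435 peak, V 20726192 to 20726401, so they share 1 stretch without DLS435 peaks. The DLS435 list has 2048 peaks and replicate 2 has 3430, from 1 library each. A peak lost at 1 gene and a lower recovery of the whole library cannot be told apart. By quartile of replicate 2 fold, none of the members' peaks was in the first (89.1% of all shared), and 5 of 6, 2 of 4 and 1 of 4 were shared in the next ones, beside 59.2%, 35.9% and 24.3% of all.

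**Figure D4:**
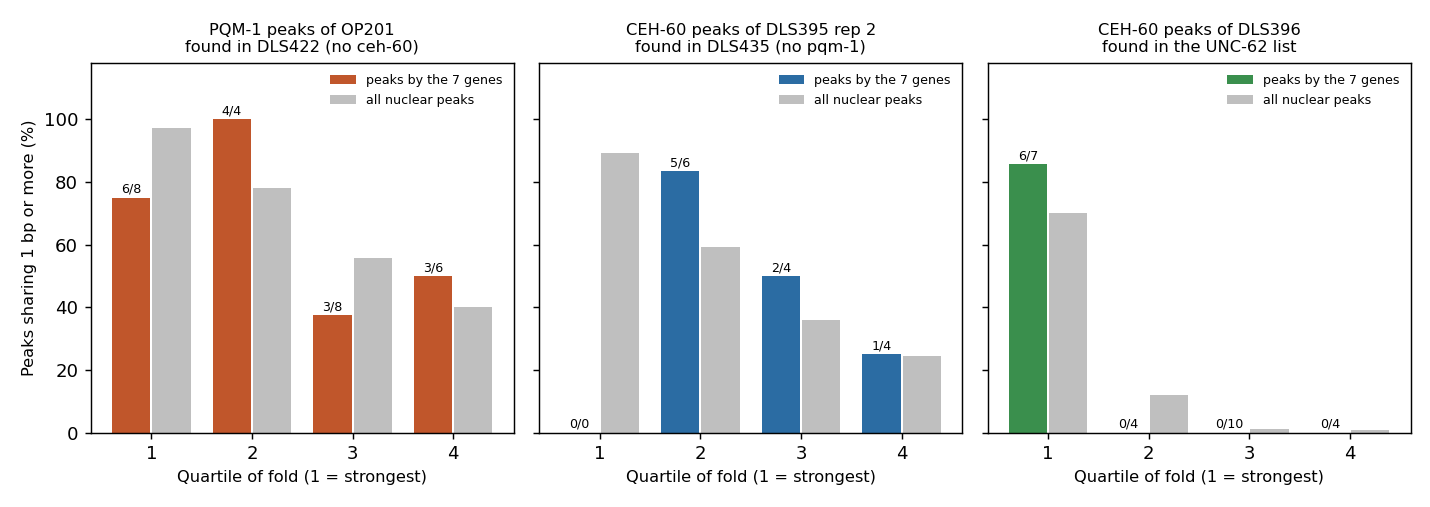
Percent of peaks that share 1 bp or more with a peak of another list, by quartile of fold from strongest (1) to weakest (4), for PQM-1 peaks of OP201 found in DLS422, CEH-60 peaks of replicate 2 found in DLS435 and CEH-60 peaks of DLS396 found for UNC-62; coloured bars are peaks by the 7 genes with counts above them, and grey bars all nuclear peaks. Shares fall from the strongest to the weakest peaks in the grey bars, and the 6 of 8 shared in the first quartile of OP201 compare with 97.1% of all.

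By the 7 genes, each CEH-60 peak of replicate 2 shared 1 bp or more with a PQM-1 peak of OP201. Of the 26 PQM-1 peaks in OP201, 13 shared sequence with a replicate 2 CEH-60 peak (50%, interval 32.1% to 67.9%), beside 44.9% of all OP201 peaks. All 14 replicate 2 peaks shared sequence with an OP201 peak (100%, interval 78.5% to 100%), beside 83.9% of all replicate 2 peaks. The median distance of their summits was 48.5 bp over 14 pairs, beside 34 bp over 2953 pairs. The closest pairs were both outside hif-1, at 7 bp for the main site and 9 bp for the site beyond it. The OP201 peaks without CEH-60 in replicate 2 were mainly in hlh-30, with 8 of 13, and included the strong atfs-1 peak and the inner pha-4 site.

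The UNC-62 peaks by the 7 genes lay on CEH-60 peaks in the top quartile of fold. All 6 overlapped a CEH-60 peak of the same strain (100%, interval 61.0% to 100%), beside 98.7% of all UNC-62 peaks. Of the 25 CEH-60 peaks, 6 overlapped an UNC-62 peak (24.0%, interval 11.5% to 43.4%), beside 21% of all. These 6 were 6 of the 7 members' peaks in the top quartile of CEH-60 fold, beside 70.1% of all top-quartile peaks, and none of the 18 weaker ones was shared, beside 11.9%, 0.998% and 0.775% of all in the lower quartiles. They were skn-1 sites 4, 6 and 9 and the main sites of hif-1, xbp-1 and pha-4, with UNC-62 folds of 2.98 to 4.39 and CEH-60 folds of 11.4 to 16.01. The exception was hlh-30 site 7, with no UNC-62 peak and a CEH-60 fold of 10.4. Summits of the 6 pairs lay 4 to 61 bp apart, with a median of 27 bp, beside 22 bp over the genome.

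The CEH-60 lists of the long protocol had nearly the same peaks by these genes in DLS396 and in DLS395. Each had 25 peaks, and 24 of the DLS396 ones overlapped a replicate 1 peak (96.0%, interval 80.5% to 99.3%), beside 90.3% of all. In the other direction it was 24 of 25 as well, beside 89.9% of all. The exceptions were weak, hlh-30 site 12 in DLS396 (fold 4.02) and hif-1 site 4 in replicate 1 (fold 1.99). All 9 mIgG1 peaks overlapped a replicate 1 peak (100%, interval 70.1% to 100%), beside 99.1% of all, but only 7 of 25 replicate 1 peaks had one in the mIgG1 list (28.0%, interval 14.3% to 47.6%), beside 45.3% of all. The 18 without an mIgG1 peak include all 8 hlh-30 peaks of replicate 1. Across the protocols, 13 of 14 replicate 2 peaks overlapped one of replicate 1 (92.9%, interval 68.5% to 98.7%), beside 97.3% of all, and 10 of 25 replicate 1 peaks had one in replicate 2 (40.0%, interval 23.4% to 59.3%), beside 33.4% of all. The exception was skn-1 site 5, where PQM-1 had a fold of 2.15 in OP201 and CEH-60 had 1.94 in replicate 2.

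Genes that work with the 7 regulators were counted in 7 lists by the same 2 kb rule, with 112 of 113 genes found in the table. These gene lists were chosen with earlier results of these data known. Shares among genes of like length were not taken for them, so the part of gene length was not tested. Over all lists, 35 of the 112 had a PQM-1 peak in DLS422 (31.2%, beside 21.2% of all protein-coding genes). In OP201 there were 53 (47.3%, beside 26.5%). For CEH-60 there were 17 in DLS435 (15.2%, beside 10.2%) and 29 in replicate 2 (25.9%, beside 17.3%). For UNC-62 there were 21 (18.8%, beside 11.5%), and for CEH-60 in DLS396 72 (64.3%, beside 40.8%). The mIgG1 list had 39 (34.8%, beside 23.8%) and replicate 1 had 67 (59.8%, beside 40.9%). No peak in any list was found for 32 of the 112.

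Of 14 further regulators of lifespan, 10 had a PQM-1 peak in DLS422 (71.4%, beside 21.2% of all protein-coding genes) and 12 in OP201 (85.7%, beside 26.5%), and 8 had an UNC-62 peak (57.1%, beside 11.5%). Of these, 5 had peaks in all 8 lists: daf-16, the FOXO factor of insulin signalling, daf-12, a nuclear receptor, kri-1, aak-2, a subunit of AMP-activated kinase, and mdt-15, a Mediator subunit. The strongest replicate 1 peak by daf-16 had a fold of 12.9 (rank 327), by daf-12 12.7 (rank 357) and by mdt-15 10.02 (rank 928), and daf-16 also led for UNC-62 (7.57, rank 196) and in OP201 (3.91, rank 209). For pqm-1 the replicate 1 fold was 9.38, and its values in the PQM-1 lists are uncertain, since wgIs201 carries further copies of the gene. It is nonetheless counted among the 10 in DLS422 and the 12 in OP201 above.

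Among 22 autophagy genes, 10 had a PQM-1 peak in DLS422 (45.5%, beside 21.2% of all) and 13 in OP201 (59.1%, beside 26.5%), 5 had an UNC-62 peak (22.7%, beside 11.5%) and 17 a CEH-60 peak in replicate 1 (77.3%, beside 40.9%). Those in all 8 lists were bec-1, which shares the skn-1 peaks of sites 9 and 10, atg-2, sqst-1, the homologue of p62, and flcn-1, the folliculin homologue. Besides bec-1 (11.4), the strongest in replicate 1 were flcn-1 (9.54, rank 1059), mxl-3, which opposes HLH-30 (8.72, rank 1349), and atg-2 (7.76). Of 20 genes of the ER unfolded protein response, 5 had a PQM-1 peak in DLS422 (25%, near the 21.2% of all) and 12 in OP201 (60%, beside 26.5%), and 14 had a CEH-60 peak in replicate 1 (70%, beside 40.9%). The kinase gene pek-1, the PERK homologue, and the BiP chaperone gene hsp-3 were in all 8 lists, with OP201 folds of 3.38 (rank 630) and 3.101 (rank 1006). The gene of the xbp-1 splicing enzyme, ire-1, had peaks in 7 lists, with a fold of 9.39 in replicate 1 (rank 1096). The strongest in replicate 1 was dnj-7, with 11.2 (rank 616).

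Of 11 hypoxia genes, 2 had a PQM-1 peak in DLS422 (18.2%, near the 21.2% of all) and 5 in OP201 (45.5%, beside 26.5%). A CEH-60 peak in replicate 1 was found for 7 of the 11 (63.6%, beside 40.9%). In all 8 lists were 2 of them, egl-9, whose prolyl hydroxylase marks HIF-1 for destruction, and rhy-1, with replicate 1 folds of 9.14 (rank 1194) and 7.81. The HIF-1 target nhr-57 had 10.6 (rank 756). Of 19 oxidative stress genes, 4 had a PQM-1 peak in DLS422 (21.1%, beside 21.2% of all) and 6 in OP201 (31.6%, beside 26.5%), shares near those of all genes. None of the 19 had a CEH-60 peak in DLS435 (10.2% of all) or replicate 2 (17.3% of all), and 10 had one in replicate 1 (52.6%, beside 40.9%). The SKN-1 repressor wdr-23 led, with 7.60 in replicate 1 (rank 1890), 3.62 for UNC-62 and 2.99 in OP201, and gcs-1, a direct SKN-1 target, had 6.54 (rank 2599).

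Of 14 heat shock genes, 3 had a PQM-1 peak in DLS422 (21.4%, beside 21.2% of all) and 3 in OP201 (21.4%, beside 26.5%). For CEH-60 they were 0 in DLS435 (10.2% of all), 3 in replicate 2 (21.4%, beside 17.3%) and 4 in replicate 1 (28.6%, beside 40.9%), and 0 had an UNC-62 peak (11.5% of all). With 14 genes, 1 gene makes 7.14%, so these shares were near those of all genes in DLS422, OP201 and replicate 2. They were lower in DLS435, replicate 1 and the UNC-62 list, on counts of 0 to 4 genes. The strongest in replicate 1 was by hsp-12.6 (3.65, rank 5844). The neighbouring genes hsp-16.1 and hsp-16.48 shared 1 PQM-1 peak within 2 kb of both, with a fold of 2.38 in DLS422 and 1.96 in OP201. It is uncertain, since both have near-identical copies close by and reads may match either copy. Of 12 genes of the mitochondrial unfolded protein response, 1 had a PQM-1 peak in DLS422 (8.33%, beside 21.2% of all). In OP201 2 had one (16.7%, beside 26.5%), and 3 had a CEH-60 peak in replicate 1 (25%, beside 40.9%). The strongest in replicate 1 was jmjd-3.1, a histone demethylase gene, with 16.7 (rank 71), and dve-1 had 7.87 (rank 1732). CEH-60 also had high-ranked jmjd-3.1 peaks in DLS435 (3.57, rank 22) and replicate 2 (4.26, rank 31), while the DLS396 and mIgG1 lists had none within 2 kb of the gene. Of all top-quartile replicate 1 peaks, 99.9% were shared with DLS396 and 97.2% with the mIgG1 list.

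The 2 kb limit decided most of what is given for hif-1, which had 16 peaks over the 8 lists at 2 kb, 6 at 1 kb and 1 overlapping the gene. At 1 kb, hif-1 had no peak in DLS422, replicate 2, the UNC-62 list or the mIgG1 list. For atfs-1 the count was 6 at 2 kb and 10 at 5 kb. The nearest peaks beyond 2 kb were at 2242 bp (OP201), 2139 bp (DLS396) and 2206 bp (replicate 1) from xbp-1, all nearest to dnj-16, and at 2200 bp from skn-1 (DLS422), nearest to bec-1. By atfs-1, a site 2324 to 2441 bp beyond the high end was in OP201 (2.23), DLS396 (9.05), mIgG1 (3.77) and replicate 1 (6.94, rank 2306). In DLS396 and replicate 1 this outer peak had a higher fold than either peak within 2 kb of atfs-1.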

How the data were processed

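Peak lists of 8 immunoprecipitated samples, 1 list each, were used as deposited. The labels put them in 7 groups of strain and antibody. The 2 input samples were not analysed here. Per the submitters' processing notes, the authors used MACS2, Bowtie2, SAMtools and deepTools. Versions, genome build, control library and treatment of duplicate reads were not given in the sources used here. Fold values as deposited are a ratio to local background. Each deposited peak also has a −log10 of its p-value and of its q-value, the second of which was never below 2. The deposited score was not used further. Read depth is unknown, and list lengths limit precision.

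A peak belonged to a gene where its interval overlapped the gene or lay within 2 kb of it, with gene names and extents from the WBcel235 gene table. Shifting genes against summits in steps of 20 bp put the best fit between -20 and 20 bp, so the table was used with the lists. No coordinate of the table is printed. Peaks overlapped at 1 bp or more, and summits within 300 bp of the next made a site. Quartiles and ranks were taken within a list. Comparisons of peaks used the nuclear chromosomes, leaving out 8 mitochondrial peaks. The code was tested on simulated data. Versions were Python 3.11.15, scipy 1.17.1, matplotlib 3.10.9, pandas 2.3.3 and numpy 2.4.6.

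The members and gene lists were chosen with earlier results of these data known. Named beyond the 7 genes are those overlapping or nearest to their peaks, from each gene list up to 4 by highest fold in replicate 1, UNC-62 or OP201, and every one with a peak in all 8 lists. Some are left out for length. A planned motif search was not run, since no promoter sequence was used here. Alternatives varied the distance, threshold, list length, overlap and site width.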

Additional observations from a re-analysis of the deposited data

How the results depend on the processing

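The count of members with a peak stayed within 1.5 times under distances of 1 or 5 kb, by summit, at −log10 q of 5 or more and with peaks nearest to the member only. Under overlap of the gene it was 3 in CEH-60 replicate 2, 2 for UNC-62 and 2 for mIgG1. Of all protein-coding genes, 7.73%, 4.38% and 10.2% overlapped a peak in these lists. At −log10 q of 10 or more the count of members was 1 in DLS435, 3 in replicate 2 and 3 for mIgG1. The shares of all genes were then 4.89%, 10.1% and 17.0%. Among the 2000 peaks of highest fold the count was 3 for mIgG1, beside 12.2% of all genes. At 5 kb hsf-1 gained 2 peaks. Without replicate 1 the genes with a CEH-60 peak in DLS395 with 3F10 numbered 5, and without replicate 2 they numbered 6. Sites numbered 36 and 27 with joins of 150 and 600 bp.

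With 50% overlap of both peaks, shared member peaks fell to 19.2% of OP201 (5 of 26) and 35.7% of replicate 2 (5 of 14) for PQM-1 and CEH-60. They fell to 16.7% of UNC-62 (1 of 6) and 4% of CEH-60 in DLS396 (1 of 25), and to 33.3% of mIgG1 (3 of 9) and 12% of replicate 1 (3 of 25). For both replicates they fell to 28.6% of replicate 2 (4 of 14) and 16% of replicate 1 (4 of 25). Peak width differs between these lists, and its part was not tested. Among the 2000 peaks of highest fold, the share was 40.0% of OP201 in DLS422 (4 of 10) and 85.7% of DLS396 in UNC-62 (6 of 7). It was 100% of DLS396 in replicate 1 and of replicate 1 in DLS396 (7 of 7 each). It was 57.1% of replicate 1 in mIgG1 (4 of 7) and 85.7% of replicate 1 in replicate 2 (6 of 7). At −log10 q of 5 or more it was 100% of DLS422 in OP201 (13 of 13), of replicate 1 in DLS396 (24 of 24) and of replicate 2 in replicate 1 (12 of 12). Shares of all peaks were not taken under these overlap, list length and q settings. A change at these genes therefore cannot be told apart from a change over all peaks. Alternatives for both replicates were chosen after seeing the data. Companion genes with a peak among the 2000 numbered 17 in DLS422 and 21 in OP201. They numbered 22 in DLS396, 17 for mIgG1 and 22 in replicate 1. Of all protein-coding genes, 12.2% to 13.3% had a peak among the 2000 in these lists. In DLS435 the share of companion genes at 2 kb was 15.2%, beside 10.2% of all genes. At 1 kb the companion genes with a peak there numbered 9 of 112, near the 7.63% of all genes. These settings use fewer peaks or a shorter distance, and the part of either in the lower counts was not tested. Of 168 alternatives for the main counts and shares, 138 stayed within 1.5 times the main count or, for a share, within the Wilson interval of the main share.

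No paired analysis was possible because the groups compared share fewer than 2 replicate numbers and no test was fitted. The motif search was not run. A missing peak says that no signal passed the authors' threshold at an unknown depth.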
